A study of Mus musculus with 18 samples.

Results

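The genes described here are 9 components of the troponin complex and of striated muscle myosin: the calcium-binding troponin subunit Tnnc1, the inhibitory subunits Tnni1, Tnni2 and Tnni3, the tropomyosin-binding subunit Tnnt1, and the myosin light chains Myl2, Myl3, Myl4 and Myl7. They were chosen by name, as troponin and light chain genes, and are 9 of the 19057 genes that the array names. All 9 were above background on at least 3 arrays and entered the tests, which covered 10812 genes.

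In striated muscle, calcium binds troponin C, which releases the block that troponin I places on actin and myosin, while troponin T ties the complex to tropomyosin. Each myosin head carries an essential and a regulatory light chain. Heart and skeletal muscle use different isoforms of most of these proteins, and the developing heart changes several of them. In the mouse, Myl7 is transcribed along the early heart tube and later mainly in the atria, Myl2 marks the ventricle, and the slow skeletal form Tnni1 gives way to the cardiac form Tnni3 around birth.

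RNA came from Wt1-GFP bright cells of embryonic heart ventricles of Wt1GFP knock-in mice, which carry GFP at the locus of Wt1, a transcription factor gene of the epicardium. The ventricles were dissociated with enzymes and the cells were sorted by fluorescence and lysed after the sort. Illumina bead arrays measured 6 stages, E11.5, E12.5, E13.5, E14.5, E15.5 and E16.5, with 3 arrays each. The labels name no treatment, and do not say whether replicate arrays hold separate litters or pools, so p-values measure only the spread between these arrays. In a sorted bulk sample, fewer cells of a type and less RNA per cell cannot be told apart.

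Of the listed markers on the array, 14 of 14 epicardial, 11 of 12 endothelial, 24 of 31 other sarcomere and 33 of 39 cardiomyocyte genes outside the sarcomere were above the floor on at least 3 arrays. The mean log2 intensity of the epicardial markers ranged over 8.88 to 9.25 on the E16.5 arrays and 9.06 to 9.28 on the E11.5 arrays, with lower values between. Of the 33 cardiomyocyte genes, 22 had their highest stage mean at E14.5, beside 14.3% of all genes tested. The lowest correlation between 2 arrays of a stage was 0.9601, at E13.5, and no array repeated another's values.

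Before the values, 3 promoters are shown, since their genes had different courses: Myl7 and Myl3 hold a CArG box, an element long studied in heart muscle promoters, and Tnnt1 a TATAAA, a general core promoter sequence. The sequences are the 250 bases before each gene's start in RefSeq's mouse assembly GRCm38.p6, 5′ to 3′ on the gene's own strand, in which 8 of the 9 genes matched an entry. Capitals mark the CArG box, which is bound by serum response factor, in the first and second sequences, and TATAAA in the third.
Myl7: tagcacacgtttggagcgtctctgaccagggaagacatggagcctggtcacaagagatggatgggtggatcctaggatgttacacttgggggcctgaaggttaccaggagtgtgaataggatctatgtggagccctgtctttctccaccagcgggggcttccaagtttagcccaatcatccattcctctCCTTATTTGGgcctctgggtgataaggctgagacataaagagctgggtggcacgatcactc
Myl3: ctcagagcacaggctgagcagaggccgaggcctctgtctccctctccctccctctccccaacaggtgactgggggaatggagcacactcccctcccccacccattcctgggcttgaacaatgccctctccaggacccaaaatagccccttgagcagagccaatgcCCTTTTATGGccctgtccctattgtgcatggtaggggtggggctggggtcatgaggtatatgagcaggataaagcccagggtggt
Tnnt1: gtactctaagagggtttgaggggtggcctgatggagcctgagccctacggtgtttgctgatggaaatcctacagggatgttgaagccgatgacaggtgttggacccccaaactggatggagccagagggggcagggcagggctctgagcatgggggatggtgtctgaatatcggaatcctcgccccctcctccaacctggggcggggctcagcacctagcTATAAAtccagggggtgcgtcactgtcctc
The Myl7 window is chr11:5898783-5899032 on the minus strand, the Myl3 window chr9:110763428-110763677 on the plus strand, and the Tnnt1 window chr7:4515976-4516225 on the minus strand.

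The CArG box was searched as CC, 6 bases that are A or T, then GG, on both strands. It lay 61 to 52 bases before the start of Myl7 and 85 to 76 bases before that of Myl3, in none of the other 8 member entries, and in 1.47% of 32851 promoters of the same length. The letters TATAAA, searched on both strands, lay 30 to 25 bases before the start of Tnnt1 and, on the other strand, in 1 of the Myl2 entries, and in 12.4% of all promoters. CATTCC, the core read by TEAD factors, was found for Tnnc1, Myl3 and Myl7 and in 12.6% of promoters. The E-box CAGCTG was found for Tnni1 and Myl2 and in 13% of promoters, the GATA-type AGATAA for Myl2 and in 9.99%, and the MEF2 element for none of the members and in 2.92%. These are matches of letters and describe no binding. Myl3 and Myl7 share the CArG box, and their levels moved in opposite directions between E11.5 and E14.5.

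Over the 18 arrays, 8 of the 9 genes had their highest stage mean at E14.5, as did 14.3% of all genes tested, and Myl7 had its highest at E11.5. In limma's F test across the 6 stages 6 of the 9 differed between stages at an adjusted p under 0.05, beside 40.9% of all genes. These were Tnnc1 (adjusted p = 0.016), Tnni2 (0.0037), Tnnt1 (0.0012), Myl2 (0.0022), Myl3 (0.0092) and Myl7 (4.3e-06). Tnni1 (0.68), Tnni3 (0.079) and Myl4 (0.14) did not pass.

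**Figure D1:**
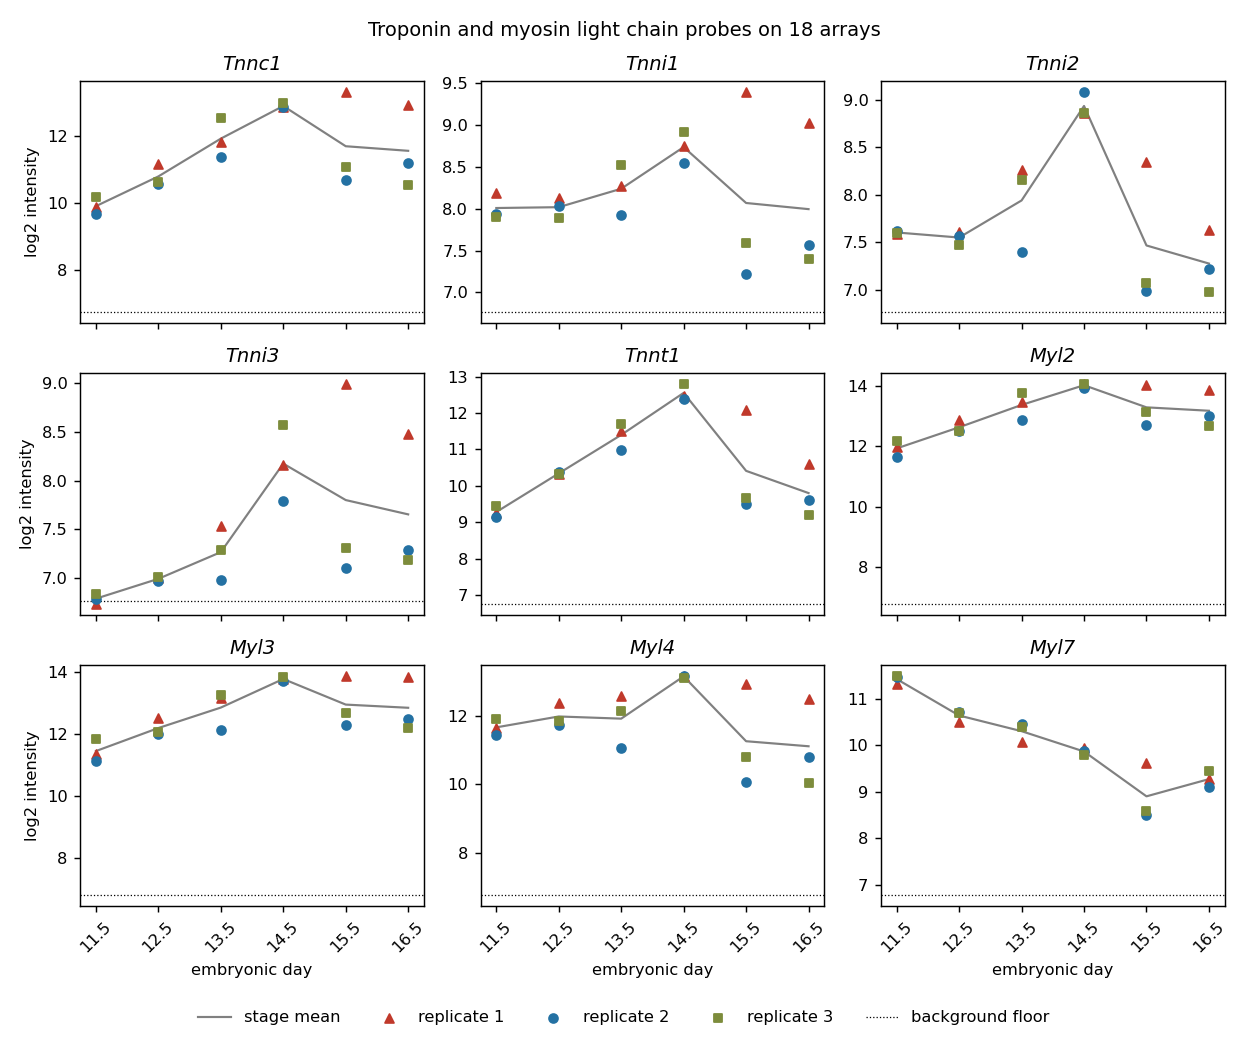
Log2 intensity of the 9 troponin and light chain genes against embryonic day, with 1 point per array, symbols for replicates 1 to 3, a line through the stage means and the background floor at 6.771 dotted. The 8 genes other than Myl7 have their highest mean at E14.5, Myl7 falls in mean to E15.5, and replicate 1 stands above the other arrays of E15.5 for all 9 genes.

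Tnnc1, the troponin C of heart and slow skeletal muscle, was higher at each stage mean up to E14.5. Its log2 intensity was 9.90, 9.67 and 10.18 at E11.5, 11.18, 10.59 and 10.64 at E12.5, 11.84, 11.39 and 12.56 at E13.5, and 12.87, 12.86 and 12.98 at E14.5. It was 13.32, 10.71 and 11.08 at E15.5, and 12.94, 11.21 and 10.55 at E16.5. The E14.5 arrays were all above the E11.5, E12.5 and E13.5 arrays, while the late stages each held 1 array as high as those of E14.5 and 2 well below them. Tnnc1 rose by 2.99 ± 0.61 (log2, SE) between E11.5 and E14.5, 7.93-fold (limma, adjusted p = 0.0024, n = 3 arrays a stage). The difference of E16.5 minus E14.5 was -1.34 ± 0.61 and did not pass (adjusted p = 0.15). Both comparisons were added after the E14.5 peak was seen. Here and for all genes below, their p-values belong to differences chosen for their size.

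Tnnt1, the slow skeletal muscle troponin T, had the largest rise to E14.5 and the largest drop after it among the 9 genes. It read 9.25, 9.15 and 9.45 at E11.5, 10.32, 10.39 and 10.32 at E12.5, 11.51, 10.99 and 11.70 at E13.5, and 12.48, 12.38 and 12.80 at E14.5. At E15.5 it read 12.07, 9.50 and 9.67, and at E16.5 10.60, 9.61 and 9.20. The arrays of neighbouring stages did not overlap on any day up to E15.5, and E15.5 and E16.5 did. Tnnt1 was 9.65-fold higher at E14.5 than at E11.5 (3.27 ± 0.51, adjusted p = 0.00027). Between E14.5 and E16.5 it fell by 2.75 ± 0.51 (adjusted p = 0.0022), and E16.5 minus E11.5 was 0.52 ± 0.51 (adjusted p = 0.48). Unlike Tnnc1, its level on E16.5 replicate 1, 10.60, was close to the E12.5 arrays.

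The 3 inhibitory subunits were dimmer. Tnni2, the fast skeletal muscle form, lay at 7.59, 7.62 and 7.60 at E11.5, 7.61, 7.57 and 7.47 at E12.5, and 8.26, 7.40 and 8.16 at E13.5. It reached 8.86, 9.08 and 8.86 at E14.5 and read 8.34, 6.99 and 7.07 at E15.5 and 7.63, 7.22 and 6.98 at E16.5. All 3 E14.5 arrays were above every other array of the series. Tnni2 was higher at E14.5 than at E11.5 by 1.33 ± 0.29 (adjusted p = 0.0042) and fell by 1.65 ± 0.29 between E14.5 and E16.5 (adjusted p = 0.0017).

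Skeletal muscle markers were mostly not seen beside Tnni2. Of 22 listed, 19 were on the array, and 14 of those, the myogenic factors Myod1, Myf5 and Myf6 among them, were not above the floor on 3 arrays. Of the 5 tested, the perinatal myosin Myh8 (2.05 ± 0.22, adjusted p = 5.2e-06) and the fast myosin binding protein Mybpc2 (0.68 ± 0.13, adjusted p = 0.00087) were higher at E16.5 than at E11.5. The fast fibre alpha-actinin Actn3 fell by 1.43 ± 0.18 (adjusted p = 1.9e-05). At E14.5, where Tnni2 was highest, Myh8 (0.84 ± 0.22, adjusted p = 0.013) and the muscle enolase Eno3 (1.57 ± 0.52, adjusted p = 0.04) were higher than at E11.5, and Actn3 was lower (-0.96 ± 0.18, adjusted p = 0.0012). Mybpc2 and Myog did not pass there. The summed intensity of the 5 was 1258 to 1461 at E14.5 and 885 to 901 at E11.5, and 1262 to 1817 at E16.5. Their part in the Tnni2 result was not tested.

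Tnni1, the slow skeletal form and the main troponin I of the fetal heart, gave 8.19, 7.93 and 7.90 at E11.5 and 8.75, 8.54 and 8.91 at E14.5. It gave 9.39, 7.22 and 7.59 at E15.5 and 9.02, 7.56 and 7.40 at E16.5. Its E14.5 arrays did not overlap its E11.5 arrays, but E14.5 minus E11.5, 0.73 ± 0.46, did not pass (adjusted p = 0.3), and E16.5 minus E11.5 was -0.01 ± 0.46 (adjusted p = 0.99). The sign of that last difference turned with 1 array or another scaling (0.10 with cyclic loess and 0.28 without E16.5 replicate 3).

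Tnni3, the cardiac form, started at the background: 6.74, 6.79 and 6.84 at E11.5, where 2 of 3 arrays were above the floor of 6.771, and 7.0, 6.97 and 7.01 at E12.5. It read 7.53, 6.98 and 7.29 at E13.5, 8.16, 7.79 and 8.57 at E14.5, 8.99, 7.10 and 7.31 at E15.5, and 8.48, 7.29 and 7.19 at E16.5. Every later array was above every E11.5 array. Tnni3 was 2.61-fold higher at E14.5 than at E11.5 (1.39 ± 0.41, adjusted p = 0.023). That call was lost without any 1 of the E11.5 arrays or without E14.5 replicate 1 or 3 (adjusted p = 0.056 to 0.099). After normexp background correction at an offset of 16 the same difference was 2.51. E16.5 minus E11.5 was 1.68 after that correction (adjusted p = 0.028) and 0.86 ± 0.41 as deposited (adjusted p = 0.12).

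Myl2, the ventricular and slow skeletal regulatory light chain, was the brightest of the members. It read 11.99, 11.64 and 12.17 at E11.5, 12.88, 12.51 and 12.52 at E12.5, 13.47, 12.88 and 13.79 at E13.5, and 14.08, 13.95 and 14.08 at E14.5. It read 14.04, 12.70 and 13.16 at E15.5, and 13.88, 13.00 and 12.68 at E16.5. At E14.5 its probe ranked between 1 and 6 of 45281 probes on each array, and at E11.5 between 236 and 376. The 18 arrays share nearly 1 set of values, with 17358 (linear) at the top, so at E14.5 Myl2 had little room above it. Myl2 was 4.31-fold higher at E14.5 than at E11.5 (2.11 ± 0.33, adjusted p = 0.00031) and 2.39-fold higher at E16.5 than at E11.5 (1.26 ± 0.33, adjusted p = 0.008). All 3 arrays of E14.5 and all 3 of E16.5 were above the E11.5 arrays.

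Myl3, the essential light chain of the ventricle and of slow skeletal muscle, followed Myl2 closely, with a Pearson r of 0.99 over the 18 arrays. Its log2 intensity was 11.36, 11.14 and 11.85 at E11.5, 13.77, 13.73 and 13.86 at E14.5, and 13.86, 12.50 and 12.20 at E16.5, with no overlap of E14.5 or E16.5 with E11.5. At E14.5 its probe ranked between 13 and 27 of 45281 probes, so it too had little room above it. Myl3 was 5.07-fold higher at E14.5 than at E11.5 (2.34 ± 0.44, adjusted p = 0.0013). It was 2.65-fold higher at E16.5 than at E11.5 (1.41 ± 0.44, adjusted p = 0.022). It no longer passed when E16.5 replicate 1 (0.90, adjusted p = 0.11), E11.5 replicate 1 (0.059) or E11.5 replicate 2 (0.079) was left out.

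Myl4 is the essential light chain of the atria and of embryonic muscle. It gave 11.64, 11.44 and 11.90 at E11.5, 12.36, 11.73 and 11.84 at E12.5, and 12.56, 11.05 and 12.13 at E13.5. It gave 13.16, 13.16 and 13.11 at E14.5, 12.91, 10.06 and 10.80 at E15.5, and 12.48, 10.81 and 10.04 at E16.5. The E14.5 arrays were above all other arrays, and the E15.5 arrays spanned 7.2-fold, the widest spread of any member within a stage. Myl4 fell by 2.03 ± 0.65 between E14.5 and E16.5 (adjusted p = 0.042). It did not pass when any 1 array of E11.5, E12.5 or E14.5, or replicate 2 or 3 of E16.5, was absent from the fit, with adjusted p up to 0.19 (E16.5 replicate 3). E14.5 minus E11.5 was 1.48 ± 0.65 (adjusted p = 0.12) and E16.5 minus E11.5 was -0.55 ± 0.65 (adjusted p = 0.57). A second Myl4 probe was under the floor on all 18 arrays.

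Myl7, the atrial regulatory light chain, ran the other way. It gave 11.31, 11.46 and 11.49 at E11.5, 10.49, 10.72 and 10.70 at E12.5, 10.06, 10.45 and 10.39 at E13.5, and 9.94, 9.87 and 9.78 at E14.5. It gave 9.62, 8.49 and 8.59 at E15.5 and 9.28, 9.09 and 9.44 at E16.5. The arrays of neighbouring stages did not overlap on any day up to E15.5, and its means were lower on each of those days, a pattern held by 4.37% of genes. Myl7 fell by 2.15 ± 0.22 between E11.5 and E16.5, to 0.225 of its E11.5 level (adjusted p = 2.7e-06), and fell by 1.56 ± 0.22 between E11.5 and E14.5 (adjusted p = 0.00011).

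The comparison of E14.5 with E11.5 was added after the E14.5 peak was seen, so it tests a difference that was chosen for its size. In it 6 of the 9 genes were higher, Tnnc1, Tnni2, Tnni3, Tnnt1, Myl2 and Myl3, where 11.6% of all genes were, and Myl7 was lower, where 12.1% of all genes were. The median member difference was 1.48, against -0.013 over all genes. For all 9 members the arrays of the pair of stages did not overlap, as for 46.9% of all genes.

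Between E14.5 and E16.5, a comparison also added after the peak was seen, 3 of the 9 genes fell, Tnni2, Tnnt1 and Myl4, beside 7.86% of all genes, and none rose. The members' median was -0.94, against -0.015 over all genes, and all 9 means were lower at E16.5. The arrays of the 2 stages did not overlap for 5 of the 9 members, as for 39.7% of all genes. They overlapped for Tnnc1, Tnni1, Tnni3 and Myl3, and replicate 1 was the E16.5 array that reached the E14.5 arrays. Myl2 (-0.85 ± 0.33, adjusted p = 0.093) and Myl7 (-0.59 ± 0.22, adjusted p = 0.076) did not overlap.

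Between E11.5 and E16.5, the ends of the series, 4 of the 9 genes differed, beside 34.7% of all genes: Tnnc1, Myl2 and Myl3 were higher at E16.5 and Myl7 lower. The median member difference was 0.52, against -0.028. The Tnnc1 call (1.65 ± 0.61, 3.14-fold, adjusted p = 0.0485) sat at the threshold. It did not pass when any 1 array of E11.5, E12.5 or E14.5, or replicate 2 of E13.5, replicate 3 of E15.5 or replicate 1 or 2 of E16.5, was absent (adjusted p = 0.0515 to 0.23, the last at a difference of 0.96 with E16.5 replicate 1 absent). The arrays of Tnnt1, Tnni1, Tnni2 and Myl4, all high at E14.5, overlapped between E16.5 and E11.5, and those of the other 5 members did not, as for 49.6% of all genes.

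**Figure D2:**
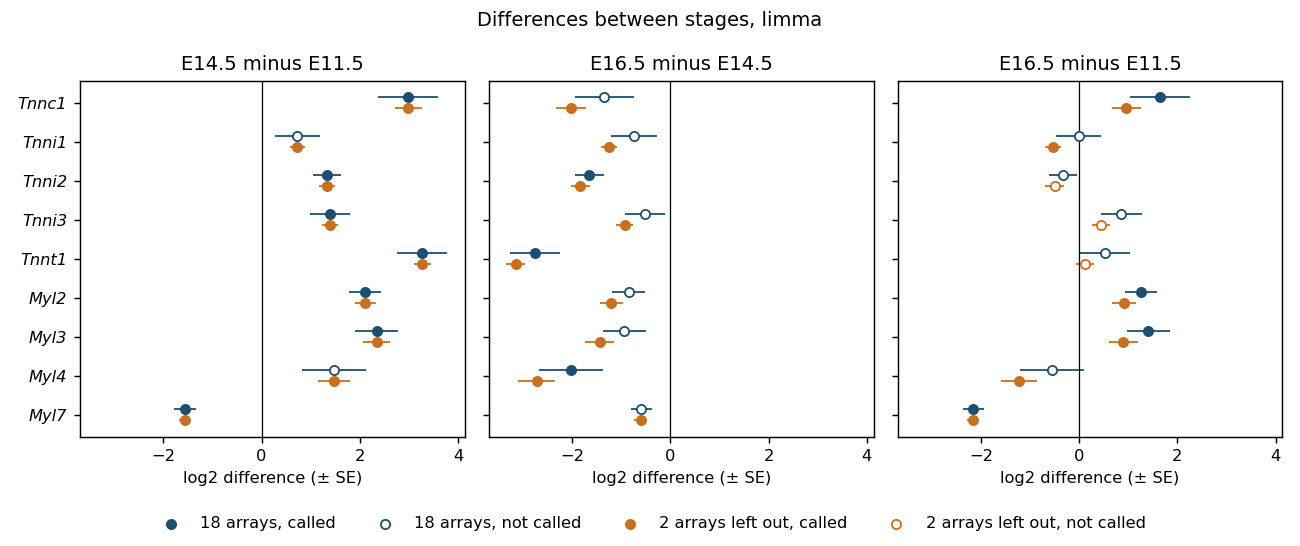
Log2 difference of the later minus the earlier stage for each gene, with SE bars, for E14.5 minus E11.5, E16.5 minus E14.5 and E16.5 minus E11.5; filled points passed an adjusted p of 0.05, and orange points leave out E15.5 replicate 1 and E16.5 replicate 1. Tnnt1 has the largest rise to E14.5 (3.27) and the largest drop after it (-2.75), and Myl7 lies below 0 in all 3 panels.

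Day by day, the only step with calls was E15.5 against E14.5, in which 3 of the 9 genes fell, beside 1.05% of all genes. These were Tnni2 (-1.46 ± 0.29, adjusted p = 0.019), Tnnt1 (-2.14 ± 0.51, adjusted p = 0.041) and Myl7 (-0.96 ± 0.22, adjusted p = 0.035). They held only with all 3 E14.5 arrays, since without any 1 of those no member was called in a daily step. In limma no member was called in the other 4 steps, in which 5.57%, 4.87%, 4.57% and 0.444% of genes were called in either direction in order of age. Closest to the threshold in those 4 steps was Myl7 at E12.5 against E11.5 (-0.78, adjusted p = 0.0502). At E14.5 against E13.5 the arrays of all 9 members did not overlap, as for 24.6% of genes.

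The late stages each held an array unlike the other pair. Replicate 1 was the highest of the E15.5 arrays for 9 of 9 members and of the E16.5 arrays for 8 of 9, all but Myl7. At E15.5 the highest array was above the lowest 6.11-fold for Tnnc1, 5.94-fold for Tnnt1, 2.52-fold for Myl2 and 2.2-fold for Myl7. The members' summed intensity was 56504, 15999 and 21301 on the E15.5 arrays and 46832, 19989 and 15537 on the E16.5 arrays. The E14.5 range was 53397 to 58528 and the E11.5 range 12961 to 17389, so 1 array of each late stage lay within the E11.5 range and another a little above it. The endothelial markers summed to 11626, 24719 and 22531 on the E15.5 arrays, with replicate 1 in the E14.5 range of 11416 to 13281. The epicardial markers summed to 5856, 8934 and 6933 there, with replicate 1 nearest the E14.5 range of 5347 to 5645. The smooth muscle and pericyte markers summed to 11742, 5210 and 6434 on the same arrays, with mean log2 values of 8.08, 7.97 and 8.05. A sum weighs bright genes most, here Acta2 (log2 mean 13.26 at E14.5). Replicate 1 of E16.5 had the lowest endothelial sum (20975) and the lowest epicardial sum (9000) of the 3 arrays of its stage. The part of these markers in the members' spread was not tested. At E13.5 a smaller spread had replicate 2 as the lowest array for 8 of 9 members.

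E15.5 replicate 1 and E16.5 replicate 1 were also left out together. They were chosen because heart muscle genes were high there, so the lower late means and the smaller spread without them both follow from that choice, and the values are a description. All 9 genes were then past the F test's threshold (43.8% of all genes), and all 9 were past it as lower at E16.5 than at E14.5 (10.1% of all genes), with a median of -1.44. In that fit E16.5 minus E14.5 was -3.15 ± 0.19 for Tnnt1, -2.72 ± 0.37 for Myl4, -2.02 ± 0.30 for Tnnc1 and -1.20 ± 0.24 for Myl2. Between E11.5 and E16.5, 3 genes were past the threshold as higher and 3 as lower (16.8% of all genes each way). The differences were 0.96 for Tnnc1, 0.91 for Myl2 and 0.90 for Myl3, and -0.53 for Tnni1, -1.23 for Myl4 and -2.16 for Myl7.

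The isoforms of a pair were next compared within each array, as the difference of 2 probes' log2 intensities relative to its mean at E11.5. This gives how far the balance moved and not which isoform was more abundant, and it is a description with no test. Myl7 minus Myl2 averaged -1.49 at E12.5, -2.57 at E13.5, -3.66 ± 0.12 (SD, n = 3) at E14.5, -3.89 ± 0.18 at E15.5, then -3.41 ± 0.68 at E16.5. On the E15.5 arrays it was -3.90, -3.71 and -4.06. The top of the scale limits Myl2 at E14.5 and on E15.5 replicate 1, so the differences there are not exact sizes. On E16.5 replicate 1 Myl2 was also near the top (15100, linear). The E16.5 arrays gave -4.09, -3.41 and -2.73, with no overlap with the E11.5 arrays at -0.17, 0.33 and -0.16.

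The essential light chains shifted less. Myl4 minus Myl3 averaged -0.43 ± 0.05 at E12.5, -1.16 ± 0.29 at E13.5, -0.86 ± 0.10 at E14.5, -1.91 ± 0.65 at E15.5, then -1.95 ± 0.39 at E16.5. All 15 later arrays were below the 3 E11.5 arrays, and E14.5 was slightly above E13.5 in mean. Myl3 was near the top of the scale at E14.5, so the differences there may not be exact sizes. For the troponin I pair, Tnni3 minus Tnni1 averaged 0.20 ± 0.13 at E12.5, 0.25 ± 0.24 at E13.5, 0.66 ± 0.21 at E14.5, 0.95 ± 0.14 at E15.5, then 0.88 ± 0.18 at E16.5. Its E16.5 arrays gave 0.68, 0.95 and 1.0, against -0.23, 0.07 and 0.16 on the E11.5 arrays. With normexp correction at an offset of 16 the E16.5 mean was 1.79 in place of 0.88.

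**Figure D3:**
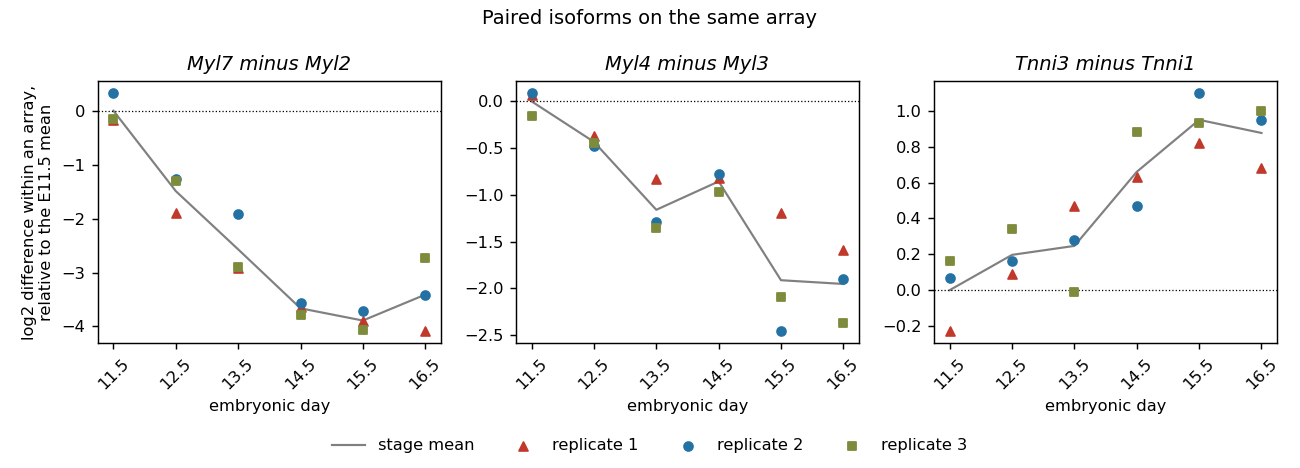
Within-array log2 difference of 3 isoform pairs relative to the E11.5 mean, against embryonic day, with 1 point per array and a line through the stage means. Myl7 minus Myl2 reaches -3.66 by E14.5, Myl4 minus Myl3 reaches -1.95 and Tnni3 minus Tnni1 0.88 by E16.5; the Myl2 values at E14.5 lie at the top of the intensity scale.

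The members did not follow 1 course. Myl2 and Myl3 (Pearson r = 0.99), Tnnc1 and Myl2 (0.98) and Tnnc1 and Myl3 (0.98) were closest over the 18 arrays. Tnni2 and Myl4 and Tnni3 and Myl3 followed (0.9 each), then Tnnc1 and Tnni3, Tnnc1 and Tnnt1, and Tnni2 and Tnnt1 (0.89 each). Myl7 had r between -0.52 and 0.26 with the other 8. These 18 points share stages and the 2 high late arrays, so the values describe likeness only.

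Among the tested genes outside the members, those with the most similar course differed by member. For Tnnc1 they were Csrp3 (r = 0.985), a Z-disc protein, Actn2 (0.976), the sarcomeric alpha-actinin, and Actc1 (0.975), cardiac actin. Csrp3 and Actn2 were also among the first 3 for Myl2 and for Myl3. Tnni3 was most like the calcium store protein Casq2 (0.983), the caveolin Cav3 (0.978) and the muscle enolase Eno3 (0.977), and Myl4 most like skeletal actin Acta1 (0.963). The nearest genes were Ppif (0.937) for Tnni1, Haus8 and Slitrk5 (0.936 each) for Tnni2, Spsb4 (0.951) for Tnnt1 and Wasf1 (0.96) for Myl7, none of which encodes a sarcomere protein.

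Other genes of the sarcomere shared the E14.5 maximum. Of 24 tested, 20 had their highest stage mean there, beside 14.3% of all genes. At E14.5, 17 were higher and 1 lower than at E11.5, beside 11.6% and 12.1% of all genes, with a list median of 1.73. Titin, Ttn, was higher by 3.14 ± 0.71 (adjusted p = 0.0047), Actn2 by 3.04 ± 0.70 (0.0053) and Actc1 by 2.61 ± 0.62 (0.0067). Between E11.5 and E16.5, 2 of the 24 were higher, Myom2, measured below the floor on each of its 3 E11.5 arrays, and Pdlim5 (0.27), and 2 lower, the tropomyosins Tpm1 (-1.41 ± 0.14, adjusted p = 1.9e-06) and Tpm2 (-0.59 ± 0.12, 0.0015). Between E11.5 and E16.5, 34.7% of all genes differed in either direction. Tropomyosin is the strand on which troponin sits. Tpm1 was the 1 gene lower at E14.5 than at E11.5, as Myl7 was among the members.

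Of the other troponin and muscle light chain genes, 5 of 8 were tested. Myl1, the fast skeletal muscle essential light chain, fell by 1.42 ± 0.17 between E11.5 and E16.5 (adjusted p = 1e-05) and fell by 0.79 ± 0.17 between E11.5 and E14.5 (adjusted p = 0.003). Mylk2, the skeletal myosin light chain kinase, was higher at E16.5 than at E11.5 (adjusted p = 0.0011). Its 3 E11.5 arrays were all below the floor, so no size is given. Mylpf (-0.07), the heart kinase Mylk3 (-0.30) and the troponin I-binding kinase Tnni3k, also below the floor on those arrays, did not pass in that comparison.

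Light chain genes of smooth muscle and non-muscle cells, 8 of 10 tested, had 3 genes lower and 0 higher at E16.5 than at E11.5. Of all genes, 34.7% differed between those stages in either direction. The 3 lower genes of the list were Ppp1r12a, the targeting subunit of myosin phosphatase (-1.03 ± 0.15, adjusted p = 5.8e-05), the kinase Mylk (-0.56 ± 0.17, 0.019) and Myl12a (-0.20 ± 0.07, 0.041). Myl6 (0.30), Myl9 (-0.48), Myl12b (-0.26), Ppp1r12c (0.10) and Ppp1r12b, which was under the floor at both stages, did not pass (limma, adjusted p between 0.12 and 0.97). At E14.5 against E11.5 the list had 3 genes lower, Ppp1r12a, Mylk and Myl12b, and 0 higher, beside 12.1% and 11.6% of all genes. With the high late arrays left out 1 was higher, beside 13.9% of all genes. Of the 8, 4 had their highest stage mean at E14.5, beside 14.3% of all genes.

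Of 8 tested ventricular markers, 3 were higher and 1 lower at E14.5 than at E11.5, and 0 were higher and 2 lower at E16.5 than at E11.5 (Lbh -1.27 and Irx3 -0.60). Of 10 atrial markers, 2 were higher at E16.5 than at E11.5 (Gja5 1.97 and Stard10 0.35) and 2 lower (Nr2f2 -0.31 and Dkk3 -0.28), where 34.7% of all genes differed. The defining atrial gene Sln was above the floor on 4 of 18 arrays, and the ventricular factor Irx4 on 7 of 18. The summed intensity of the atrial list was 2105 to 2574 at E16.5 and 1715 to 1744 at E11.5. That of the ventricular list was 1821 to 3745 at E16.5 and 3425 to 3968 at E11.5. Such sums weigh bright genes most. Lbh had log2 means of 11.4 at E11.5 and 10.13 at E16.5, and Gja5 of 7.65 and 9.62. The median difference of E16.5 minus E11.5 was 0.04 in each list. At E14.5 the atrial list had 1 gene higher (Gja5, 1.84, a connexin that arterial endothelium also expresses) and 2 lower than at E11.5, with a median of 0.04.

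At E14.5, where the members peaked, the epicardial list was at its lowest. Its summed intensity was 5347 to 5645 at E14.5, 15184 to 16032 at E11.5 and 9000 to 12049 at E16.5. Of 14 genes, 11 were lower and 1 higher at E14.5 than at E11.5, beside 12.1% and 11.6% of all genes. At E16.5 against E14.5, 10 were higher and 0 lower, beside 9.89% and 7.86% of all genes. The cardiomyocyte genes outside the sarcomere summed to 24509 to 28522 at E14.5 and 8123 to 9202 at E11.5, with 19 of 33 higher and 1 lower. The largest was myoglobin, Mb (4.46 ± 0.68, adjusted p = 0.00023). At E16.5 they gave 15020 to 32436, and 9 were higher and 2 lower than at E11.5, with Fabp3 (2.76) and Cox8b among the higher. In that comparison 34.7% of all genes differed in either direction. At E11.5 none of the 3 arrays had Cox8b above the floor, so its difference is not given a size.

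Of 13 smooth muscle and pericyte markers on the array, 4 were not above the floor on 3 arrays: Cnn1, Myh11, Lmod1 and Synpo2. Of the 9 tested, 7 were higher (Acta2 1.84 ± 0.43, adjusted p = 0.0061) and 1 lower at E14.5 than at E11.5. The lower gene was Tagln (-0.35 ± 0.08, adjusted p = 0.0044). Of all genes, 11.6% were higher and 12.1% lower there. At E16.5 against E14.5, 1 was higher and 4 lower, beside 9.89% and 7.86% of all genes. Endothelial markers showed no peak: 10 of 11 were higher at E16.5 than at E11.5, with sums of 20975 to 25867 at E16.5 and 2829 to 2861 at E11.5. Of 9 erythroid markers 5 were higher and 1 lower at E16.5 than at E11.5, with sums of 22546 to 35252 at E16.5 and 976 to 1990 at E11.5. For both lists, the share of all genes that differed between E16.5 and E11.5 in either direction was 34.7%. The part of these cell types in the members' results was not tested.

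**Figure D4:**
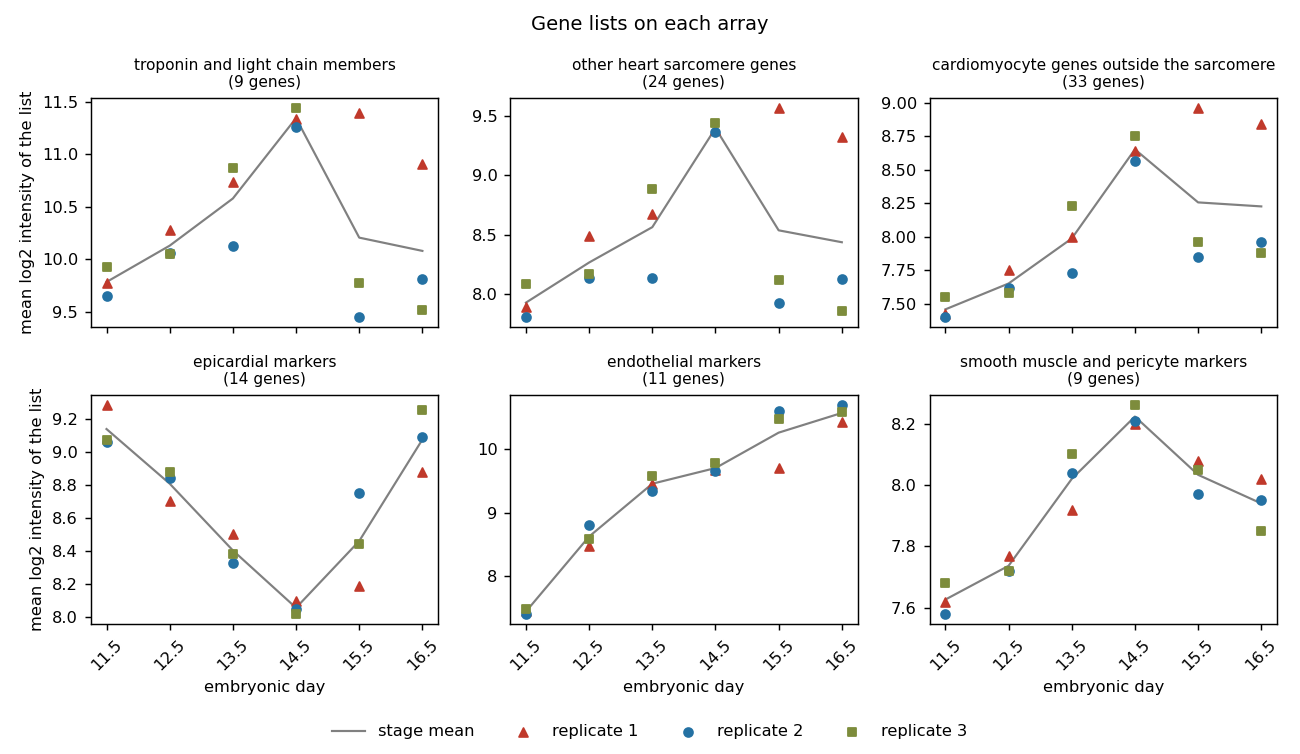
Mean log2 intensity of 6 gene lists on each array against embryonic day, with a line through the stage means: the 9 members, other sarcomere genes, cardiomyocyte genes outside the sarcomere, epicardial, endothelial, and smooth muscle and pericyte markers. The first 3 lists are high at E14.5 and on replicate 1 of E15.5 and E16.5, epicardial markers are lowest at E14.5 (8.02 to 8.10), and endothelial markers are higher with age.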

How the data were processed

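Per the labels, total RNA was extracted from sorted cells, and biotin-labelled cRNA was hybridised to Illumina arrays, 18 in all. The submitters' processing notes name GenomeStudio 2011.1. The authors deposited linear probe intensities from 83.82 to 17358, with a median of 103.7. Sorted columns differed by at most 2.04, as quantile normalization would give. How the values were normalized and background was treated is not given in the sources used here. A second table's 18 signal and 18 detection columns match no label and were not used, so dim probes were judged by a floor and not, as planned, by detection p.

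Log2 intensities were fitted with limma 3.58.1 in R 4.3.3, with 1 mean per stage, 12 residual degrees of freedom and Benjamini-Hochberg adjustment over 10812 genes at 0.05. The floor was 109.2 (6.771 in log2), from a background mode of 99.18 and a tail of 0.01. Of 45281 probes 19961 were above it on at least 3 arrays. Of all probes 34885 had 1 gene symbol in the platform table, 18 several and 10378 none listed. The brightest kept probe stood for a gene. The number of arrays limits the precision.

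The members and gene lists were chosen with earlier results of these data known. Genes outside the members were named by rule: the 3 genes most correlated with each member, every tested gene of the 2 other light chain lists, and up to 3 called genes each way per marker list by size of the E16.5 minus E11.5 difference. Ttn, Mb, Acta2, Myog and marker genes cited for their absence were named after their values were seen. Same-numbered arrays of E16.5 and E11.5 deviated together, though weakly (r = 0.207 to 0.293), so they may be paired. The main fit leaves this out. A fit with the replicate number as a block, described after the report, called the same 4 members in that comparison. The code was tested on simulated data, and alternatives are described after the report.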

Additional observations from a re-analysis of the deposited data

How the results depend on the processing

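Of the member results recomputed under the alternatives 697 kept their direction and side of the threshold, 35 lost the call, 26 gained one and 4 changed sign. The sign changes were those of Tnni1 at E16.5 minus E11.5 (-0.01), which was 0.10 with cyclic loess and ranged over -0.53 to 0.28 with single arrays left out. Array weights gave 7564 genes in the F test (4417 without), 3928 for E14.5 against E11.5 (2564), 3768 for E16.5 against E14.5 (1919) and 21 member calls in daily steps (3). Member calls in daily steps numbered 1 with no filter on low values, 22 without both late replicates 1 and 0 to 14 without single arrays. They numbered 0 without any E14.5 array, 14 without E15.5 replicate 1, 5 without E13.5 replicate 1, and 1 without E11.5 replicate 1, E12.5 replicate 3 or E15.5 replicate 2 or 3. For E16.5 against E14.5 single arrays left out gave 1053 to 2523 genes: 1235, 1105 and 1221 without E14.5 replicates 1, 2 and 3, and 1194 and 1053 without E16.5 replicates 2 and 3. With fewer arrays a stage, the test has less power by construction. The Tnni3 minus Tnni1 difference at E16.5 was 1.79 with normexp at an offset of 16 (0.88 as deposited). Cyclic loess called 2123 genes higher and 1401 lower at E16.5 than at E11.5, 60.2% higher, against 46% in the deposited scaling.

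With the replicate number as a block, the F test called 4948 of 10812 genes (45.8%) and 8 members, adding Tnni3 and Myl4. E16.5 against E11.5 called 4126 genes and the same 4 members. Daily steps gave 4 member calls, with Tnni2 called at E14.5 against E13.5 and again at E15.5 against E14.5. For E14.5 against E11.5 (2875 genes) the block added Myl4 (adjusted p = 0.044), and for E16.5 against E14.5 (2228 genes) Myl2 (0.036). The replicate numbers deviated together beyond 0.1 in all 3 pairs for 5 of 15 stage pairs, and the lowest correlation of any was -0.252. The 5 were E11.5 with E12.5 and E16.5, E12.5 with E14.5 and E16.5, and E15.5 with E16.5. They link all stages but E13.5, some only through another stage. The other 10 pairs fell short of that cut, so a direct comparison does not settle them. Among these, E14.5 with E11.5 gave 0.484, 0.184 and 0.0955, and E16.5 with E14.5 gave 0.342, 0.262 and 0.0556. Both of these are linked through E12.5, and E13.5 is not settled. In the comparisons tested between stages that deviated together directly (E16.5 against E11.5, E12.5 against E11.5 and E16.5 against E15.5) the block changed no member call. In E14.5 against E11.5 and E16.5 against E14.5, linked only through E12.5, it added the calls of Myl4 and Myl2. Slide as a block was not run, since the files used here name no slide. Signal over background limits Tnni3 and other dim genes, and the top of the scale limits Myl2 and may limit Myl3.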
